A study of Saccharomyces cerevisiae with 6 samples.

Results

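The 9 genes described here are those that set, spare and store iron in baker's yeast: the transcription factor genes AFT1 and AFT2, the mRNA decay genes TIS11 and CTH1, the vacuolar iron genes FTH1, FET5, SMF3 and CCC1, and VHT1, which encodes the biotin importer. They were chosen by name, with earlier results of these data known. Each was read from the only probe set annotated to it, 9 of 5498 probe sets tested (5449 genes in all). RNA came from Saccharomyces cerevisiae CEN.PK113-7D, a laboratory reference strain, kept in chemostats at the critical dilution rate (the dilution rate at which ethanol overflow begins) on a defined minimal medium with 10 g/L glucose as carbon source. All cultures carried the plasmid pYX212: it was empty in the control strain, held NOX, a water-forming NADH oxidase, in the NOX strain, and held AOX, the alternative oxidase of mitochondria, in the AOX strain, with 2 Affymetrix Yeast Genome 2.0 arrays per strain. The labels do not give the promoter that drove either oxidase, the dilution rate in numbers or whether the arrays of a strain stem from different chemostat runs. Strain and dilution rate therefore cannot be told apart. The p-values reflect the spread among these arrays alone, which may be technical.

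Yeast senses iron through iron-sulfur clusters made in mitochondria. When these run short, Aft1 and its paralog Aft2 enter the nucleus and switch on genes of iron uptake, release from the vacuole and sparing. Tis11, also named Cth2, and its paralog Cth1 are zinc finger proteins that bind AU-rich elements in messenger RNAs of iron-using proteins and lead them to decay, which saves iron for essential uses. The vacuole is the iron store: Ccc1 loads it, whereas the permease Fth1 with the multicopper oxidase Fet5, and the metal transporter Smf3, bring iron back to the cytosol. Vht1 belongs here because biotin synthase holds iron-sulfur clusters, and cells short of iron are known to import biotin in place of making it.

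Levels are deposited probe set intensities, and differences between strains are log2 differences of quantile-normalised log2(intensity + 16), which understates changes of dim genes. The number of arrays limits their precision. Errors are limma's standard errors (SE) with n = 2 arrays a strain, and a gene passed at a Benjamini-Hochberg adjusted p under 0.05 over all 5498 probe sets. The median S. cerevisiae intensity lay between 511 and 543 on the 6 arrays. The replicate arrays of NOX stood further apart (median absolute log2 difference 0.124 over the tested probe sets) than those of AOX (0.0682) and control (0.0275). NOX replicate 1 had the lowest array median over all probe sets (log2 6.25, where the other arrays had 6.37 to 6.45). Of the 9 genes, 8 were brighter on all 6 arrays than the 95th percentile of 1746 probe sets for another organism carried by the array, which served as background; the exception was TIS11.

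TIS11 (YLR136C) separated the strains most. Its intensity was 24.2 and 24.6 on the control arrays, 32.3 and 33.4 on the NOX arrays, and 328 and 333 on the AOX arrays. Both AOX arrays stood far above all others, and no strain overlapped another. It was not well above background on either control array, nor on NOX replicate 2, so its fold is a lower bound: at least 6.35-fold higher in AOX than in control (limma adjusted p = 3.02e-05; the normalised means were 8.43 ± 0.013 in AOX and 5.27 ± 0.0056 in control, SD, n = 2) and at least 6.40-fold higher in AOX than in NOX (adjusted p = 3.64e-05). Of all 5498 probe sets it had the 3rd largest fitted rise in AOX over control. TIS11 also passed between NOX and control, by a log2 difference of 0.45 (SE 0.06; limma adjusted p = 0.021), but at this brightness no fold is given, since the NOX mean of 5.72 lay under the background percentile that bounds control. The size of that difference depended on the processing. It was 0.17 with quantile normalization over S. cerevisiae probe sets (limma adjusted p = 0.138). With 64 added to the intensity it was 0.22 (adjusted p = 0.0646), and neither passed. It passed at 0.27 on the deposited values (0.0474) and at 0.68 with 1 added to the intensity (0.0158). With the processing unchanged, the pass was lost with any control or AOX array left out, although the difference stayed between 0.44 and 0.46. A strain left with 1 array adds nothing to the shared estimate of spread, here and in the like fits below. A pass lost or gained there need not mean a changed difference.

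CTH1 (YDR151C), the paralog of TIS11, followed the same order of strains over a smaller range. It measured 279 and 262 in control, 303 and 301 in NOX, and 357 and 386 in AOX, so that each strain's arrays stood above those of the strain before. In AOX its log2 level rose over control by 0.43 (SE 0.07, 1.35-fold; limma adjusted p = 0.0306). Its NOX level differed from control by 0.16 (95% interval -0.012 to 0.33; adjusted p = 0.251) and from AOX by an AOX minus NOX difference of 0.27 (SE 0.07; adjusted p = 0.0742), neither past the threshold. The rise over control did not pass without control replicate 1 (adjusted p = 0.172), control replicate 2 (0.344), AOX replicate 1 (0.0958) or AOX replicate 2 (0.224), although its size stayed between 0.37 and 0.49 over the alternatives.

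**Figure D1:**
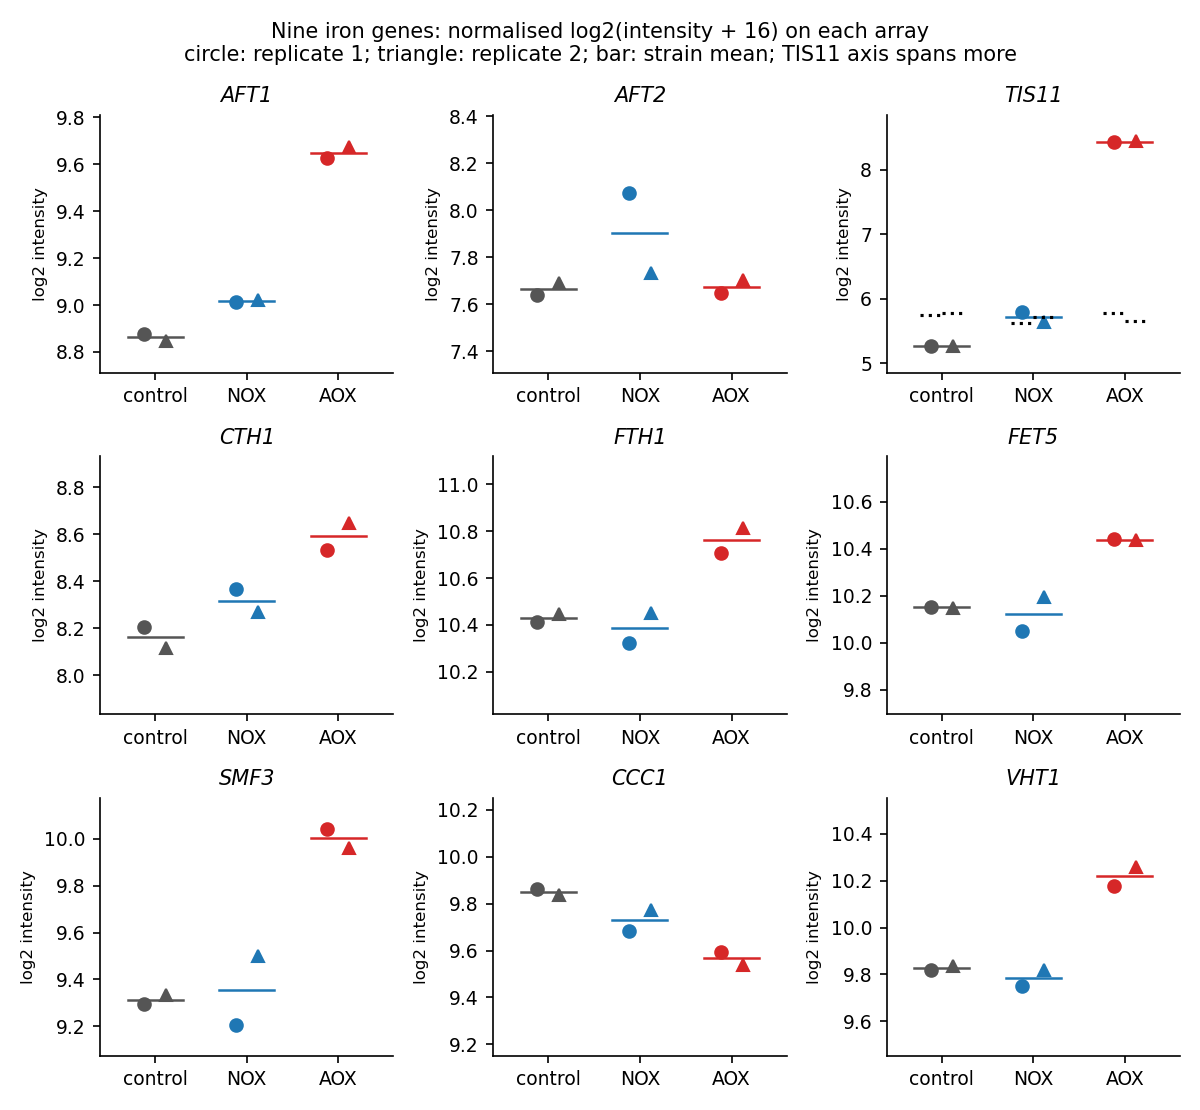
Normalised log2(intensity + 16) of the 9 genes on each array, by strain (grey, control; blue, NOX; red, AOX); circles are replicate 1, triangles replicate 2, bars strain means (n = 2), and the dotted marks in the TIS11 panel give each array's background percentile. TIS11 stands at 8.42 and 8.44 on the AOX arrays and at 5.27 and 5.26 on the control arrays, below the dotted marks; its panel spans a wider range than the others, which share one width.

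The regulator genes did not move alike. AFT1 (YGL071W) measured 451 and 446 in control, 491 and 518 in NOX, and 779 and 799 in AOX, with the AOX arrays clear of the rest. It rose in AOX by 0.79 over control (SE 0.05, 1.73-fold; limma adjusted p = 0.00104) and was higher in AOX than in NOX by 0.63 (SE 0.05, 1.55-fold; adjusted p = 0.00111). The NOX minus control difference of AFT1 was 0.16 (95% interval 0.037 to 0.27; adjusted p = 0.146), which did not pass.

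AFT2 (YPL202C) measured 183 and 189 in control, 246 and 203 in NOX, and 183 and 194 in AOX. The AOX and control arrays overlapped, and the highest value came from NOX replicate 1, the array that stood apart. The AOX minus control difference was 0.011 (95% interval -0.27 to 0.29; limma adjusted p = 0.982). NOX minus control was 0.24 (SE 0.11, limma adjusted p = 0.275), which became 0.072 without NOX replicate 1 and 0.41 without NOX replicate 2. AOX minus NOX was -0.23 (limma adjusted p = 0.291), which became -0.061 without NOX replicate 1 and -0.40 without NOX replicate 2. The size of both differences thus depended on which NOX array was kept.

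The genes that release vacuolar iron were higher on both AOX arrays than on any other array. SMF3 (YLR034C), a transporter of the Nramp family, measured 609 and 633 in control, 558 and 725 in NOX, and 1044 and 978 in AOX. It rose in AOX by 0.69 over control (SE 0.10, 1.61-fold; limma adjusted p = 0.022) and by 0.65 over NOX (SE 0.10, 1.57-fold; adjusted p = 0.0168). Its NOX arrays lay on either side of the control arrays, and the NOX minus control difference was 0.04 (95% interval -0.21 to 0.29; adjusted p = 0.84). The rise over control did not pass without control replicate 1 (adjusted p = 0.187), control replicate 2 (0.159), AOX replicate 1 (0.16) or AOX replicate 2 (0.155). The rise over NOX did not pass without control replicate 1 (0.0558), control replicate 2 (0.0548), AOX replicate 1 (0.128) or AOX replicate 2 (0.101).

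FTH1 (YBR207W), the iron permease of the vacuolar membrane, measured 1361 and 1392 in control, 1218 and 1407 in NOX, and 1689 and 1789 in AOX. FET5 (YFL041W), the oxidase that works with it, measured 1122 and 1120 in control, 1013 and 1184 in NOX, and 1390 and 1375 in AOX. Both genes had their AOX arrays above all 4 others, and their NOX arrays lay on either side of control. Their AOX minus control differences were near each other, 0.33 for FTH1 (SE 0.07; 95% interval 0.17 to 0.50) and 0.29 for FET5 (SE 0.06; 95% interval 0.14 to 0.44), and neither passed (limma adjusted p = 0.0693 and 0.0827). Against NOX both passed as higher in AOX, FTH1 by 0.37 (SE 0.07; adjusted p = 0.0272) and FET5 by 0.32 (SE 0.06; adjusted p = 0.0347). These values rest on the arrays that set the spread: without NOX replicate 1 the AOX minus control differences passed (adjusted p = 0.0309 for FTH1 and 0.0142 for FET5), and without NOX replicate 2 also (0.0288 and 0.0146). The passes against NOX were lost with any control or AOX array left out, and with only the arrays compared (limma adjusted p = 0.103 for FTH1 and 0.138 for FET5). FET5 also lost it on the deposited values (0.0669), with scaling on other-organism probe sets (0.0578) and with replicate number as a block (0.0942). FTH1 passed in these fits (0.0364, 0.0381 and 0.0441).

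CCC1 (YLR220W), which carries iron into the vacuole, was the member with the opposite order. It measured 922 and 909 in control, 775 and 883 in NOX, and 761 and 729 in AOX. The AOX arrays were the lowest and the control arrays the highest, with NOX between and no overlap. The AOX minus control difference was -0.29 (SE 0.05; 95% interval -0.42 to -0.15), just short of the threshold (limma adjusted p = 0.0576). It passed without NOX replicate 1 (adjusted p = 0.0225) or NOX replicate 2 (0.0234), at -0.29 and -0.28. The differences of NOX from control (-0.12, adjusted p = 0.257) and of AOX from NOX (-0.16, adjusted p = 0.149) did not pass.

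VHT1 (YGR065C) measured 893 and 905 in control, 811 and 913 in NOX, and 1149 and 1200 in AOX. The AOX arrays were again the highest, and NOX stayed close to control on the normalised scale (-0.04, 95% interval -0.18 to 0.092; adjusted p = 0.682). In AOX it rose by 0.39 over control (SE 0.05, 1.31-fold; limma adjusted p = 0.0179) and by 0.43 over NOX (SE 0.05, 1.35-fold; adjusted p = 0.00775). The rise over control was lost without control replicate 1 (adjusted p = 0.251), control replicate 2 (0.227), AOX replicate 1 (0.0818) or AOX replicate 2 (0.155), and on the deposited values without normalization between arrays; the rise over NOX was lost without AOX replicate 2 (0.0651).

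In all, 5 of the 9 genes rose in AOX over control (TIS11, AFT1, SMF3, CTH1 and VHT1) and none fell by limma, against 2.55% of all tested probe sets that rose and 1.04% that fell (3.58% in either direction). At an unadjusted p under 0.05, 7 were higher and 1, CCC1, was lower. The share of all probe sets at that unadjusted threshold was not counted. Such counts, here and below, therefore have no background to be read against. The median of the 9 log2 differences was 0.39, against -0.0024 over all probe sets. The 9 genes were chosen with earlier results of these data known. The values over all probe sets, here and in the other comparisons, therefore do not serve as a test of the 9. Both AOX arrays lay above both control arrays for 7 of the 9 genes (28.7% of all probe sets did so), below them for CCC1 (29.4%), and overlapped them for AFT2. With single arrays left out, the AOX minus control difference ran from 3.14 to 3.19 for TIS11 and from 0.76 to 0.81 for AFT1. Both passed each time, whereas SMF3, CTH1 and VHT1 did not with a control or AOX array left out.

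Between AOX and NOX, 6 of the 9 genes passed as higher in AOX (TIS11, AFT1, VHT1, SMF3, FTH1 and FET5) and none as lower by limma, against 4% and 4.38% of all probe sets (8.38% in either direction); 7 were higher and 1 lower at an unadjusted p under 0.05. Their median difference was 0.37, against 0.0089 over all probe sets. Both AOX arrays lay above both NOX arrays for 7 of the 9 genes (24.7% of all probe sets did so) and below them for AFT2 and CCC1 (21.5%). With single arrays left out, the AOX minus NOX difference ran from 2.63 to 2.76 for TIS11 and from 0.61 to 0.65 for AFT1. Both passed each time, whereas SMF3, FTH1 and FET5 did not with a control or AOX array left out, nor VHT1 without AOX replicate 2. Between NOX and control, TIS11 alone passed as higher and none as lower by limma, against 2.8% and 0.909% of all probe sets (3.71% in either direction); at an unadjusted p under 0.05, 2 were higher and none lower. Both NOX arrays lay above both control arrays for 4 genes (27% of all probe sets did so) and below them for 2 (28.4%). With single arrays left out, the NOX minus control difference ran from 0.38 to 0.53 for TIS11 and from 0.072 to 0.41 for AFT2. Counts for such fits are given below, beside those over all probe sets. The median difference of the 9 genes in NOX was 0.04, and their values ran from -0.12 to 0.45. The comparisons of NOX and of AOX with control share their control arrays.

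**Figure D2:**
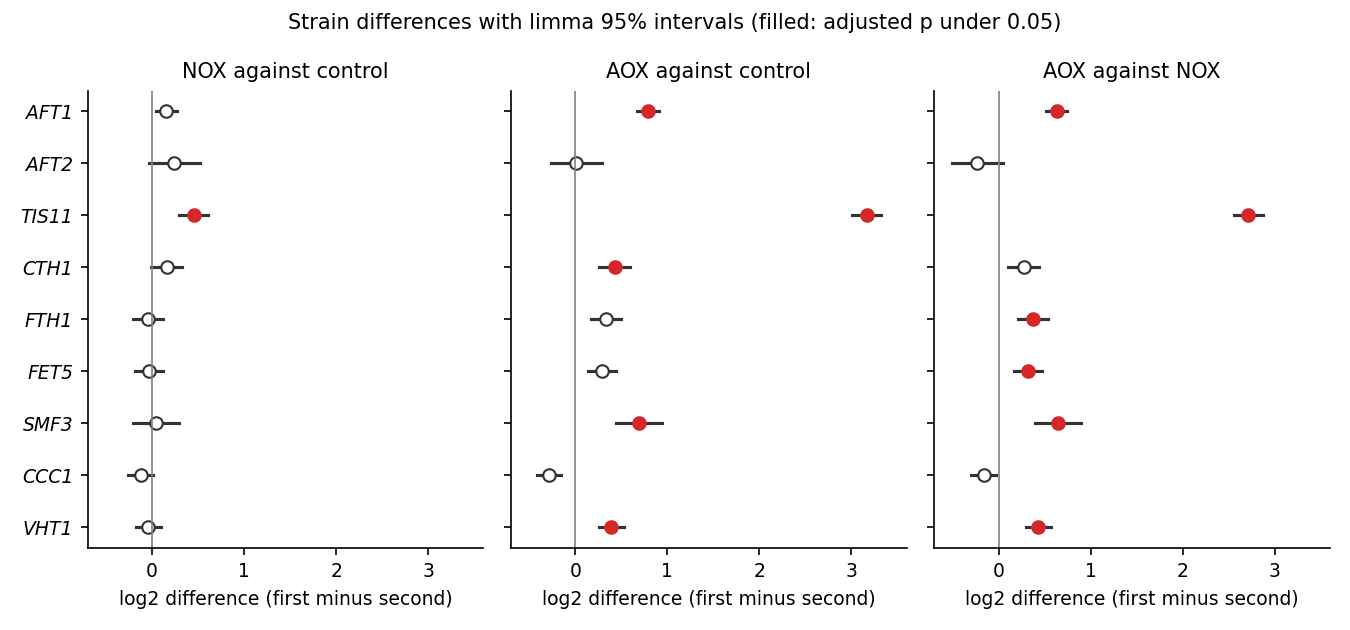
Log2 differences of the 9 genes in the 3 strain comparisons (x axis, first strain minus second), with limma's 95% intervals; filled points passed at an adjusted p under 0.05. In the AOX against control panel TIS11 lies at 3.16 and the others between -0.29 and 0.79.

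The genes that act with these members were read from lists chosen with earlier results of these data known. Of 23 uptake and reuse genes reported as Aft1 or Aft2 targets, 18 rose in AOX over control and none fell (12 to 18 rose over the alternatives; median log2 difference 0.75). Over all probe sets 2.55% rose and 1.04% fell. With the deposited values, quantile normalization over S. cerevisiae probe sets or scaling on other-organism probe sets, 1 of the 23 fell. By unadjusted p under 0.05, 20 were higher and 2 lower. FIT2, a cell wall mannoprotein gene of siderophore uptake, rose by 4.17 (SE 0.10; limma adjusted p = 3.02e-05). FET3, the plasma membrane paralog of FET5, rose by 2.03 (SE 0.07; adjusted p = 0.000229), and FTR1, the paralog of FTH1, by 1.25 (SE 0.05; adjusted p = 0.000229), where FET5 and FTH1 measured 0.29 and 0.33. The ferric reductase gene FRE5, not well above background in control, was at least 3.82-fold higher (adjusted p = 3.02e-05). LSO1, counted among those that rose, was below the background percentile on all 6 arrays.

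FTR1 also rose in NOX over control, by 0.26 (SE 0.05; limma adjusted p = 0.0411), as did the ferric reductase gene FRE4, by 0.71 (SE 0.09; adjusted p = 0.0153), the 2 of the 23 that passed there; none fell. Over all probe sets 2.8% rose and 0.909% fell there. At an unadjusted p under 0.05, 6 of the 23 were higher and 1 lower. The median difference of the 23 was 0.13, and ran from 0.069 to 0.19 over the alternatives. How many passed moved when single arrays were left out, as did the calls over all probe sets. FET3, at 0.16 in NOX over control (adjusted p = 0.251), passed without NOX replicate 1 (0.26, adjusted p = 0.0466). FRE4 did not pass without control replicate 1 or 2, and FTR1 did not pass with any control or AOX array left out. FTR1 also did not pass on the deposited values or with scaling on other-organism probe sets. Between AOX and NOX, 18 of the 23 were higher in AOX and 1 was lower, against 4% and 4.38% of all probe sets. The lower gene was FRE4, at least 1.88-fold, with AOX under the background percentile on 1 of 2 arrays. FIT3, another mannoprotein gene of siderophore uptake, was higher in AOX than in NOX by 3.38 (SE 0.15; limma adjusted p = 0.000191).

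The messenger RNAs that Tis11 or Cth1 are reported to bring to decay showed small differences in AOX. None of 9 passed between AOX and control by limma, in either direction. Over all probe sets 3.58% passed, so for a list of 9 this is near the background. At an unadjusted p under 0.05 none was higher and 1 was lower. Their differences ran from -0.28 for GLT1, the glutamate synthase, to 0.12 for HEM15, the ferrochelatase, with a median of -0.091; ACO1, the aconitase, measured -0.11, and SDH4, a subunit of succinate dehydrogenase, -0.12. Between AOX and NOX, 4 were lower and 1 higher at an unadjusted p under 0.05. GLT1 (-0.31, SE 0.06, limma adjusted p = 0.0315) and BIO2 (-0.22, SE 0.05, adjusted p = 0.0464) fell, where 4.38% of all probe sets did. Both lost the pass on the deposited values and with scaling on other-organism probe sets. They also lost it with only the arrays compared and with replicate number as a block. BIO2 lost it too with 1 in place of 16 added to the intensity, and with the AOX replicate numbers exchanged in that block. With any control or AOX array left out both lost it, and BIO2 also without NOX replicate 1. Over the alternatives that left out no single array, 0 to 1 of the 9 fell in AOX against control and 0 to 2 against NOX, and none rose in either. Over all alternatives their median ran from -0.10 to -0.067 in AOX minus control and from -0.14 to -0.10 in AOX minus NOX. Between NOX and control none passed by limma, where 3.71% of all probe sets did, which for a list of 9 is near the background. At an unadjusted p under 0.05, 1 was higher and none lower.

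Of the 9 measured genes of biotin synthesis and use, 3 fell in AOX compared with NOX (BIO5, BIO3 and BIO2). Another 6 did not pass and none rose by limma, where VHT1 was higher in AOX. Over all probe sets 4.38% fell and 4% rose. At an unadjusted p under 0.05, none of the 9 was higher and 4 were lower. The median of the 9 was -0.13 and ran from -0.21 to -0.057 over the alternatives. How many fell moved when single arrays were left out, as did the calls over all probe sets. BIO2 is the iron-sulfur biotin synthase, BIO3 and BIO4 encode the enzymes before it, and BIO5 a transporter of a biotin precursor. In AOX compared with NOX, BIO5 fell by 0.81 (SE 0.08; limma adjusted p = 0.00387) and BIO3 fell by 0.57 (SE 0.05; adjusted p = 0.00214), and both passed in all 16 alternatives. BIO4 differed by -0.36 (limma adjusted p = 0.0644), which became -0.48 without NOX replicate 1 and -0.24 without NOX replicate 2. In NOX over control BIO3 rose by 0.34 (SE 0.05, limma adjusted p = 0.025), and BIO5 measured 0.41 (limma adjusted p = 0.0649). The pass of BIO3 was lost on the deposited values and with any control or AOX array left out. Against control, AOX values were -0.40 for BIO5 (adjusted p = 0.0763), -0.23 for BIO3 (0.0897), -0.26 for BIO4 (0.247) and -0.091 for BIO2 (0.477), none past the threshold; BIO3 and BIO4 passed there without either NOX array. Of the 9 measured genes of the biotin list, none passed between AOX and control by limma, where 3.58% of all probe sets did, which is near the background. At an unadjusted p under 0.05, 3 were lower and none higher.

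Among 12 partners of Aft1 control and cluster assembly, 1 rose and 1 fell in AOX over control (median -0.015), against 2.55% and 1.04% of all probe sets. GRX4, a glutaredoxin gene whose product holds Aft1 inactive when iron is plentiful, fell by 0.60 (SE 0.07; limma adjusted p = 0.0075), and GRX3, its paralog, measured -0.12 (adjusted p = 0.473). ISU2, a scaffold gene for iron-sulfur clusters, rose by 0.70 (SE 0.06; adjusted p = 0.00309), and ISU1 measured 0.067 (adjusted p = 0.844). In the 4-gene high-iron list, which also holds GRX4, YAP5, the activator of CCC1 in high iron, rose by 0.49 (SE 0.05; adjusted p = 0.00472). YAP5, GRX4 and ISU2 passed in AOX against NOX too (0.31, -0.46 and 0.54; adjusted p = 0.017, 0.0139 and 0.0056). Against control, all 3 lost the pass without control replicate 1 or 2, GRX4 also without either AOX array and YAP5 without AOX replicate 1. Against NOX, all 3 lost it without either AOX array, and YAP5 and GRX4 also without either control array. None of the 12 partners passed between NOX and control by limma, where 3.71% of all probe sets did, which is near the background. At an unadjusted p under 0.05, 1 was higher and 1 lower.

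**Figure D3:**
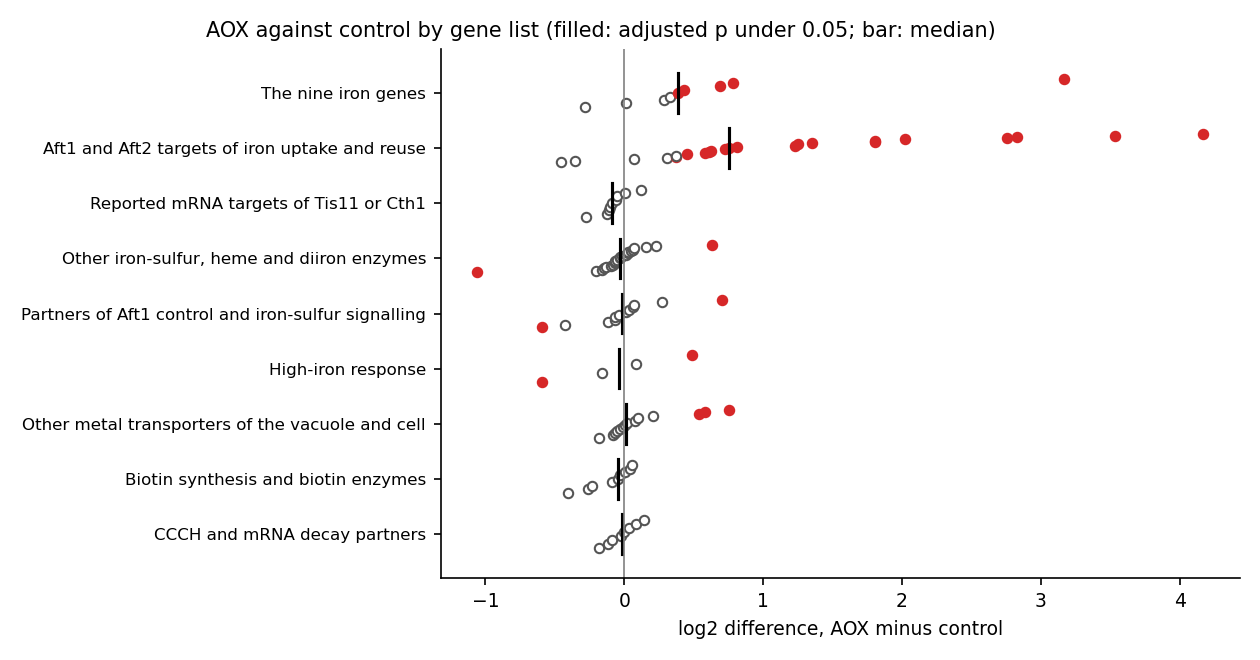
Log2 differences between AOX and control (x axis) for the 9 iron genes and the genes of each list; filled points passed at a limma adjusted p under 0.05 and bars are list medians. The 9 genes have a median of 0.39, the Aft1 and Aft2 targets 0.75, and the Tis11 and Cth1 targets -0.091.

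The other metal transporters served as a comparison for the vacuolar members. SMF1 and SMF2, the paralogs of SMF3 outside the vacuole, measured -0.013 (95% interval -0.21 to 0.18) and -0.031 (-0.15 to 0.087) in AOX minus control (limma adjusted p = 0.966 and 0.844). Of 14 such transporters, 3 rose in AOX over control and none fell by limma, against 2.55% and 1.04% of all probe sets. Their median was 0.012, with 4 higher and 1 lower at an unadjusted p under 0.05. Those that rose were FRE6, the vacuolar ferric reductase (0.75, adjusted p = 0.0061), MRS4, the mitochondrial iron carrier (0.59, adjusted p = 0.00438), and COT1, a vacuolar cobalt and zinc transporter (0.54, adjusted p = 0.00251). All 3 lost the pass without control replicate 1 or 2, FRE6 also without either AOX array and MRS4 without AOX replicate 2. FRE6 and MRS4 are also among the 23 Aft1 and Aft2 targets.

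Of the 9 genes, TIS11 alone had strain means that spanned over 1 on the log2 scale. Among 76 other genes with such a span, those with the profile most like it over the 6 arrays were FTR1 (Pearson r = 0.997), GTO3 (0.997), FIT2 (0.996), CTL1 (0.995) and FET3 (0.994). The 6 arrays form 3 strains of 2, so these correlations largely describe the step from control and NOX to AOX. GTO3 was below background on the control and NOX arrays.

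**Figure D4:**
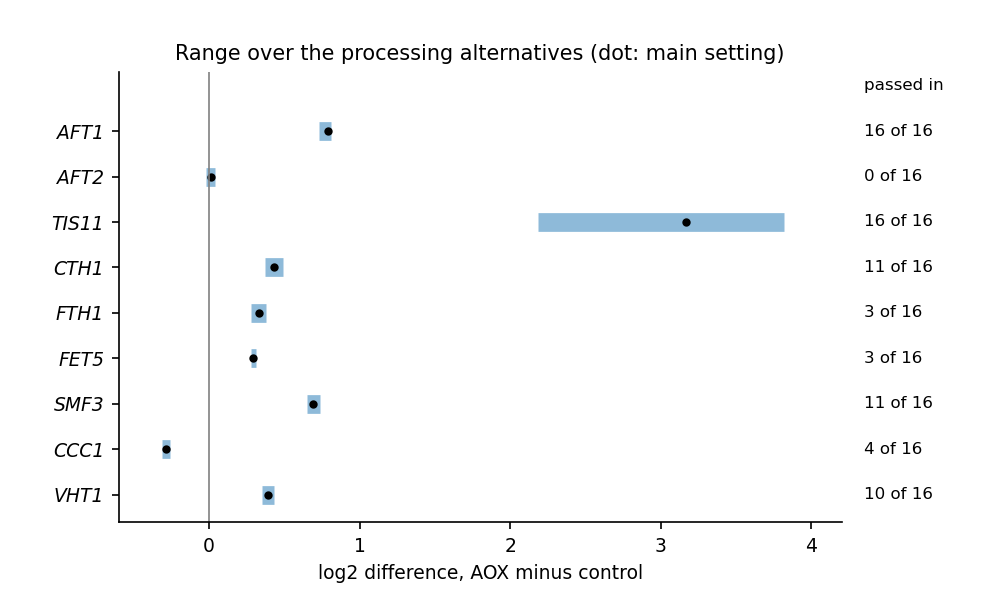
Log2 difference between AOX and control of the 9 genes (dot, main setting) with its range over 16 processing alternatives (bar), and in how many of these the gene passed. AFT1 and TIS11 passed in all 16, TIS11 with a range of 2.18 to 3.82, and AFT2 in none.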

How the data were processed

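Biotin-labelled RNA was read on 6 Affymetrix arrays, per the labels. The authors deposited probe set intensities on a linear scale; the software that made them is not given in the sources. Of 10928 probe sets, 5498 were named S. cerevisiae through the array's annotation and the R64 gene table, and 1746 belonged to another organism. Array medians of log2(intensity + 16) differed by up to 0.204, above the limit of 0.1, so quantile normalization over all probe sets followed. limma 3.58.1 in R 4.3.3 fitted a mean per strain (3 residual and 2.77 prior degrees of freedom). The same fit was then run on simulated data drawn with the means and errors of these arrays. No value given here comes from that run. A gene under that organism's 95th percentile on an array was called not well above background, and its fold was bounded by that percentile. Genes named are the 9 members, fixed paralogs and partners, up to 4 genes of each list with the smallest adjusted p per comparison, and the 5 genes most like TIS11; others were chosen after their values were seen. Members and lists were chosen with earlier results of these data known. Alternatives varied the normalization, pseudocount, dim filter, prior, arrays fitted, replicate block and threshold, and left out each array. Sequences and genome coordinates were not used here.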

Additional observations from a re-analysis of the deposited data

How the results depend on the processing

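Over 16 alternatives per gene (15 planned and 1 chosen after seeing the data), AFT1 and TIS11 passed in all in AOX against control and in AOX against NOX. The number of the 9 genes that passed was 5 in AOX against control: it was 2 at an adjusted p under 0.01, 8 with only the arrays compared, 2 with the replicate block, and 2 to 8 when single arrays were left out. In AOX against NOX it was 6: 3 at 0.01, 3 with only the arrays compared, and 2 to 7 when single arrays were left out. In NOX against control it was 1: 0 at 0.01, with quantile normalization over S. cerevisiae probe sets, with a pseudocount of 64, with only the arrays compared and with the replicate block, and 0 to 2 when single arrays were left out. Over all probe sets the calls were 204, 197 and 461 in NOX against control, AOX against control and AOX against NOX; they were 76, 115 and 195 at 0.01, 111, 364 and 202 with only the arrays compared, 79, 124 and 237 with the replicate block, and 14 to 1443, 54 to 363 and 158 to 1476 when single arrays were left out. The deviations of same-numbered replicates correlated at 0.116 (control and NOX), -0.207 (control and AOX) and -0.60 (NOX and AOX), so the numbers were not taken to pair the arrays. With the AOX numbers exchanged in the block, chosen after seeing this, 1, 5 and 7 of the 9 genes passed in that order, and 365, 228 and 562 of all probe sets. Pseudocounts of 1 and 64 and the normalizations moved the AOX minus control value of TIS11 between 2.18 and 3.82. They moved its NOX minus control value between 0.17 and 0.68. The values that changed sign had not passed. In NOX against control these were FTH1 without NOX replicate 1 (over the fits that left out 1 array, -0.10 to 0.022), FET5 with scaling on other-organism probe sets (0.013) and without NOX replicate 1 (range -0.10 to 0.043), SMF3 without NOX replicate 2 (range -0.11 to 0.19), BIO4 without NOX replicate 2 (range -0.026 to 0.21) and SMF1 without control replicate 1 (range -0.19 to 0.033). In AOX against control they were AFT2 with quantile normalization over S. cerevisiae probe sets (-0.00062), and without control replicate 1 or AOX replicate 2 (range -0.018 to 0.041), and SMF1 without control replicate 1 or AOX replicate 2 (range -0.13 to 0.099). In AOX against NOX they were SMF2 without NOX replicate 1 or AOX replicate 1 (range -0.0082 to 0.038). The cause of these changes was not tested. Signal near background limits TIS11 in control and NOX.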

Other observations

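Of 23 measured genes of iron-sulfur, heme and diiron enzymes outside the reported decay targets, 1 rose, 1 fell and 21 did not pass in AOX over control (median -0.031), against 3.58% of all probe sets called in either direction. Those that passed were the catalase genes. CTT1, the cytosolic catalase, rose by 0.63 (SE 0.09; limma adjusted p = 0.0173), and CTA1, the peroxisomal catalase, fell by 1.06 (SE 0.10; adjusted p = 0.00412). CTT1 did not pass without control replicate 2 or either AOX array, and CTA1 did not pass without either control array or AOX replicate 1. SCS7, a diiron hydroxylase of sphingolipids, fell in NOX over control by 0.50 (SE 0.09, limma adjusted p = 0.0492). That pass was lost on the deposited values, with a pseudocount of 1 and with any control or AOX array left out. SCS7 was higher in AOX than in NOX by 0.66 (SE 0.09, limma adjusted p = 0.0117), a pass lost without either AOX array. RNR2, a ribonucleotide reductase subunit, had an AOX minus NOX difference of -0.29 (SE 0.05, limma adjusted p = 0.0266), a pass lost with any control or AOX array left out. The pass of RNR2 was also lost on the deposited values and with scaling on other-organism probe sets. PHO84, a phosphate transporter, was higher in AOX than in NOX, at least 1.30-fold (adjusted p = 0.0107), with 1 of 2 NOX arrays under the background percentile; that pass was lost without either AOX array.

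Of 8 general mRNA decay genes listed beside TIS11 and CTH1, among them DHH1, XRN1 and CCR4, none passed in any of the 3 comparisons by limma. Over all probe sets 3.71% passed in NOX against control, 3.58% in AOX against control and 8.38% in AOX against NOX, so a count of 0 in a list of 8 is near the background. Calls among the 8 appeared with a NOX array left out, where the calls over all probe sets also grew. Over the alternatives their median ran from -0.10 to -0.030 in NOX minus control and from 0.021 to 0.062 in AOX minus NOX. At an unadjusted p under 0.05, 1 was higher in AOX than in control, 1 was higher in AOX than in NOX and 2 were lower in NOX than in control. Their AOX minus control differences ran from -0.18 to 0.14.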
